A study of Phaseolus vulgaris with 36 samples.

Results

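PvMYB26 is the gene Phvul.005G157600 of common bean (Phaseolus vulgaris), followed here over pods of 4 accessions at 3 stages. It was chosen by its identifier. It is 1 of the 27433 genes in the deposited tables, where 1 of the 36995 transcripts, Phvul.005G157600.2 with a length of 1735 bases, belongs to it. The identifier places the gene on chromosome 5. The files give no coordinates or gene names, and the name PvMYB26 is the one used for this identifier in work on pod dehiscence in this species.

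MYB26 is an R2R3-type MYB transcription factor. In Arabidopsis thaliana it acts in the anther endothecium, where it is needed for the secondary wall thickening that lets the anther open, and it acts upstream of NAC factors of the NST type. In legume pods, secondary walls and lignin are laid down in the ventral and dorsal sheaths and in the inner fibre layer of the valves while the pod grows, and the tension of these layers as the mature pod dries opens it along the sutures. The bean gene is a published candidate for differences in pod dehiscence between wild and domesticated accessions.

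The stages were the first pod (R7), the filling pod (R8) and the mature pod (R9), all from untreated plants. MIDAS is domesticated and labelled indehiscent. SXB405 and ICA Bunsi are domesticated and labelled as middle dehiscent. G12873 is labelled wild type and fully dehiscent, its pods splitting open when ripe. Each accession and stage had 3 libraries, 36 in all. Separate plants are not stated for the 3, so a p-value reflects how much these libraries vary, and that variation may be technical. MIDAS and G12873 are each the only accession with their dehiscence label, so accession and dehiscence cannot be told apart.

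Estimated counts per library ranged from 2032506 to 15202576. A set of 10 abundant genes that rise and fall together took between 1.96% and 86.5% of them, which left between 275179 and 14904905 counts for all other genes. The set took over 50% in 8 libraries, among them replicates 1 and 2 of G12873 at R7, replicate 2 of MIDAS at R8 and replicate 1 of MIDAS at R9. Levels are therefore given as CPM, counts relative to a library size rescaled by TMM, a method that sets libraries to the same level over most genes. In 34 of 36 libraries the estimated count of PvMYB26 was a whole number within 0.001.

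The level of PvMYB26 and its change over the stages differed between accessions. It was highest in first pods of G12873 and fell there 107-fold by pod filling, to a mean of 0.536 CPM. In MIDAS it was lower at R7, averaged 22.3 CPM at R8 and fell by R9. In SXB405 and ICA Bunsi no library at any stage reached 4 CPM. The RNA came from whole pods, so fewer cells expressing the gene and less of its RNA per cell cannot be told apart.

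In MIDAS, the R7 libraries had 12.3, 12.5 and 9.66 CPM, the R8 libraries 24.9, 23.2 and 18.7 CPM, and the R9 libraries 4.02, 2.07 and 1.66 CPM. The 3 stages did not overlap, and R8 stood highest. In SXB405, the R7 libraries had 2.09, 1.95 and 0.948 CPM, the R8 libraries 1.05, 0.420 and 0.617 CPM, and the R9 libraries 0.291, 0.102 and 0.0790 CPM. Here R7 had the 2 highest libraries, and R7 and R8 overlapped. In ICA Bunsi, the R7 libraries had 1.27, 1.24 and 1.60 CPM, the R8 libraries 0.565, 3.02 and 0.419 CPM, and the R9 libraries 0.945, 0.239 and 0 CPM. R8 replicate 2 stood apart from the other R8 libraries of that accession. In G12873, the R7 libraries had 49.8, 66.7 and 59.2 CPM, the R8 libraries 0.578, 0.616 and 0.415 CPM, and the R9 libraries 0.732, 0.297 and 0.743 CPM. All 3 first pod libraries of G12873 lay above every other library of the series.

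**Figure D1:**
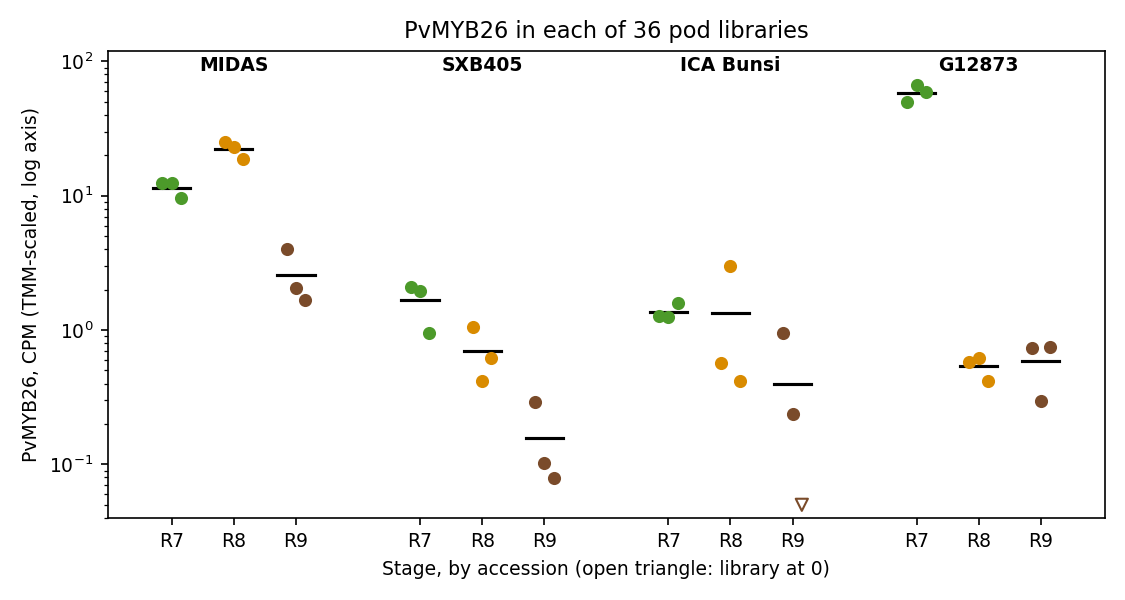
PvMYB26 in each library as CPM after TMM scaling on a log axis, by accession and stage, with a bar at the mean of 3 libraries; an open triangle marks the library at 0. G12873 at R7 stands between 49.8 and 66.7 CPM and MIDAS at R8 between 18.7 and 24.9 CPM, while SXB405 and ICA Bunsi stay under 4 CPM.

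The counts behind the low values are few. The 3 libraries of a group together held 38 counts in MIDAS at R9, 4 in SXB405 at R9, 5 in ICA Bunsi at R9, and 19 and 13 in G12873 at R8 and R9. The exact 95% Poisson interval of the pooled level was 0.0371 to 0.349 CPM for SXB405 at R9 and 0.331 to 0.859 CPM for G12873 at R8, and covers counting error only. The library at 0, ICA Bunsi R9 replicate 3, allowed a level of up to 2.81 CPM (3 counts). The high values rest on more, with 1078 counts in G12873 at R7 and 816 in MIDAS at R8, although G12873 R7 replicates 1 and 2 gave 15 and 66 of the 1078.

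Ordered by mean, the groups began with G12873 at R7 (58.6 ± 8.48 CPM, SD, n = 3), MIDAS at R8 (22.3 ± 3.18 CPM) and MIDAS at R7 (11.5 ± 1.58 CPM), and no neighbours among these overlapped. MIDAS at R9 followed (2.58 ± 1.26 CPM), apart from MIDAS at R7 but overlapping SXB405 at R7 (1.66 ± 0.623 CPM). The other 7 groups averaged between 0.157 and 1.37 CPM, and each overlapped the next in the order. Among the 20966 genes with enough counts to be tested, PvMYB26 lay at or above 90.8% of genes in G12873 at R7 and 71.6% in MIDAS at R8, against 5.27% in SXB405 at R9.

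The first question was how PvMYB26 changes over pod development in each accession. It was called lower in 7 of the 12 stage comparisons and higher in none. The 12 include the net R9 minus R7 changes, which overlap with the single steps. Changes were called where edgeR's quasi-likelihood test gave an adjusted p (Benjamini-Hochberg, across the 20966 genes) under 0.05 and the change was at least 2-fold. Log2 differences are given with an approximate standard error (SE) taken from the F statistic of that test.

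In MIDAS the means were 22.3 CPM at R8 and 11.5 CPM at R7, a log2 difference of 0.96 (SE 0.39, adjusted p = 0.0705) that did not pass, in a comparison where 16.8% of genes changed in either direction. PvMYB26 then fell, with 2.58 CPM at R9 against 22.3 CPM at R8, by 3.28 on the log2 scale (SE 0.47, adjusted p = 2.03e-06), when 16.2% of tested genes fell. Its net change was also a fall, with 2.58 CPM at R9 against 11.5 CPM at R7, by 2.32 (SE 0.47, adjusted p = 0.000136, edgeR), in a comparison where 21.8% of genes fell.

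In SXB405 the level was low throughout and still fell over the 3 stages. It had 0.695 ± 0.321 CPM at R8 against 1.66 ± 0.623 CPM at R7, a log2 difference of -1.30 (SE 0.49, adjusted p = 0.0403, edgeR) where 14.5% of genes fell. That call is lost when any of R7 replicates 1 and 2 or R8 replicates 2 and 3 is left out (adjusted p from 0.112 to 0.177). The step from R8 to R9 did not pass (log2 difference -2.19, SE 0.77, adjusted p = 0.0869, with 4.96% of genes changed in either direction), while the net change did, with 0.157 ± 0.116 CPM at R9 against 1.66 CPM at R7, a log2 difference of -3.49 (SE 0.67, adjusted p = 8.90e-05). In that net comparison 18.6% of genes fell.

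ICA Bunsi gave the least certain values. The log2 difference was 0.03 (SE 0.51, adjusted p = 0.976) for R8 minus R7 and -1.97 (SE 0.76, adjusted p = 0.0598) for R9 minus R8, and neither passed, where 23.2% and 15.4% of genes changed in either direction. Without R8 replicate 2, the library at 3.02 CPM, R8 minus R7 was -1.41 (adjusted p = 0.0367). R9 minus R8 passed without R8 replicate 1 (-2.35, adjusted p = 0.0294), R8 replicate 3 (-2.40, adjusted p = 0.0176) or R9 replicate 1 (-2.61, adjusted p = 0.0468). The net R9 minus R7 change was -1.94 (SE 0.78, adjusted p = 0.0470), against a background of 17.2% of genes that fell. The value was -1.09 when R9 replicate 2 was left out (adjusted p = 0.466). It also did not pass without R7 replicate 1, 2 or 3 or R9 replicate 3 (adjusted p from 0.0705 to 0.0788).

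In G12873 the fall between the first and the filling pod was the change with the smallest p of all 20966 genes in that comparison. The mean was 0.536 ± 0.107 CPM at R8 against 58.6 ± 8.48 CPM at R7, a level 107-fold lower (log2 difference -6.74, SE 0.53, adjusted p = 8.53e-10, edgeR), where 12.8% of genes fell. By size it ranked 71 from the largest fall. The next step gave no call, with 0.591 ± 0.254 CPM at R9 against 0.536 CPM at R8 and a log2 difference of 0.05 (95% interval -1.29 to 1.38, adjusted p = 1). At that step edgeR called 0% of genes in G12873, 1209 genes had an unadjusted p under 0.05, while DESeq2 called 7 and limma-voom 0. The net R9 minus R7 change was -6.69 (SE 0.55, adjusted p = 1.12e-09), where 15.7% of genes fell.

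**Figure D2:**
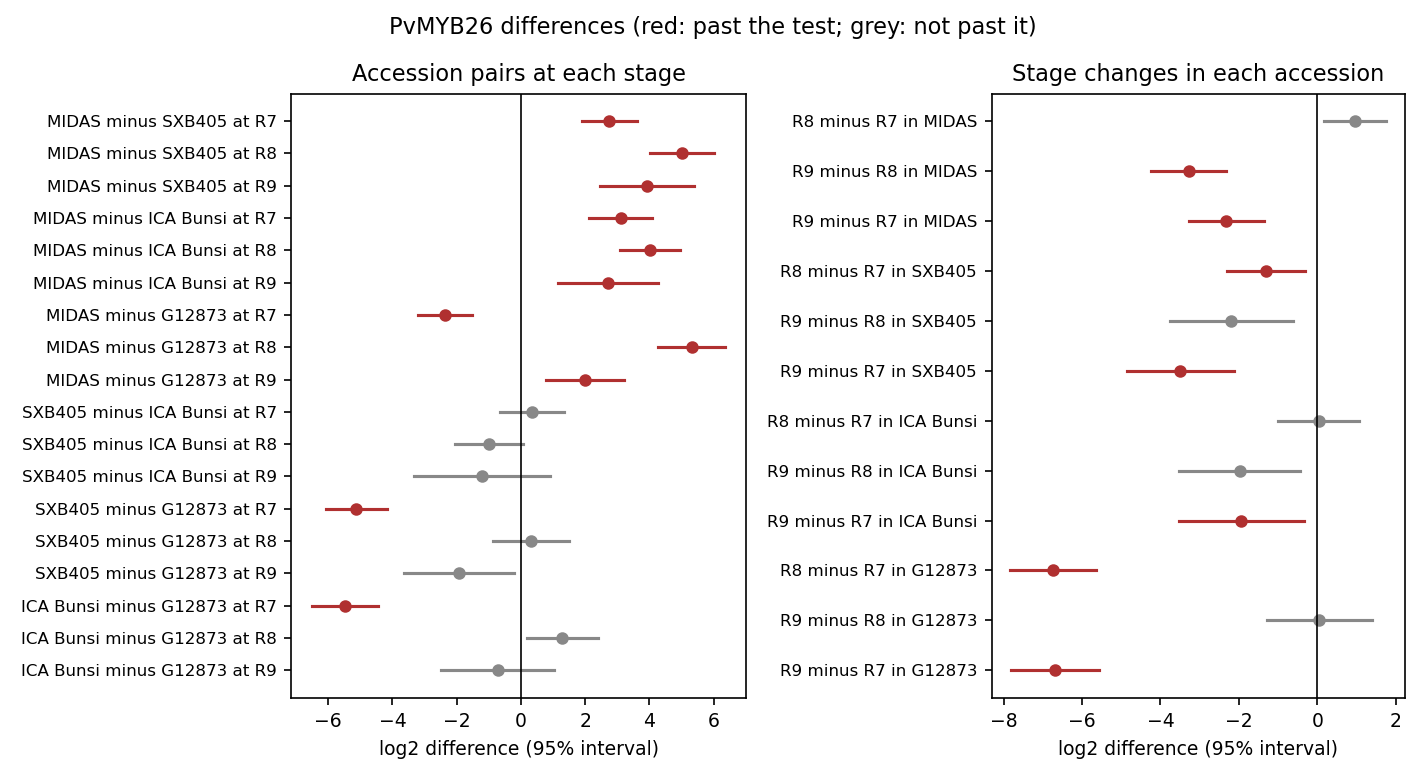
Log2 differences of PvMYB26 with 95% intervals for every pair of accessions at each stage and for every stage change in each accession, red where past the edgeR test and grey where not. G12873 R8 minus R7 is at -6.74, and the MIDAS differences from the other accessions are all positive except MIDAS minus G12873 at R7.

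These stage changes were not the same in the 4 accessions. An F-test over the accessions gave an adjusted p of 3.20e-08 for R8 minus R7, 0.0253 for R9 minus R8 and 0.000332 for the net R9 minus R7, when 33.7%, 21.8% and 24.4% of tested genes passed those tests in edgeR. The R9 minus R8 test no longer passed without G12873 R9 replicate 1 (0.0775) or 3 (0.0830) or MIDAS R9 replicate 2 (0.0529) or 3 (0.0591). Between the R7 and R9 labels the net fall in G12873 was larger than that in MIDAS. The difference of the 2 log2 changes was 4.37 (MIDAS minus G12873, SE 0.72, adjusted p = 0.000148, with 16.4% of genes past that test). The R7 libraries of these accessions lay at unlike positions on the first principal component, given below. ICA Bunsi minus G12873 gave 4.75 (SE 1.18, adjusted p = 0.0328, 1.56% of genes). That call was lost without ICA Bunsi R7 replicate 1 or 2, ICA Bunsi R9 replicate 1 or 2, or G12873 R9 replicate 2 (adjusted p from 0.0591 to 0.169). ICA Bunsi minus G12873 was -5.48 at R7 and -0.73 at R9, so the net value mostly restates the R7 levels. ICA Bunsi held 31 counts at R7 and 5 at R9, so a fall as large as that in G12873 could not be measured there. SXB405 minus G12873 gave 3.20 (SE 1.19, adjusted p = 0.0803, edgeR, 9.94% of genes) and did not pass. Among the 3 domesticated accessions no pair passed, the differences being 1.17 for MIDAS minus SXB405, -0.38 for MIDAS minus ICA Bunsi and -1.55 for SXB405 minus ICA Bunsi (SE 0.85, 1.08 and 1.15), when 12.3%, 8.1% and 1.2% of genes passed. The sign for MIDAS minus ICA Bunsi turned without ICA Bunsi R9 replicate 1 (0.24).

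The second question was how the accessions differ at a given stage, over all 6 pairs and 3 stages. PvMYB26 passed in 11 of these 18 comparisons. MIDAS took part in 9 of the 11, and the other 2 set SXB405 and ICA Bunsi against G12873 at R7.

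At R7 all 3 domesticated accessions were below G12873. MIDAS had 11.5 CPM against 58.6 CPM in G12873, a level 5.18-fold lower (log2 difference -2.37, SE 0.41, adjusted p = 6.55e-05, with 12.7% of genes lower). SXB405 had 1.66 CPM against the same 58.6 CPM, 35.0-fold lower (-5.13, SE 0.47, adjusted p = 5.43e-09, 7.87% of genes lower), and ICA Bunsi had 1.37 CPM, 44.5-fold lower (-5.48, SE 0.51, adjusted p = 8.42e-09, 4.51% of genes lower). By p, PvMYB26 ranked 8 of all genes for ICA Bunsi and 9 for SXB405. MIDAS in turn was above both other domesticated accessions at R7, by 2.76 over SXB405 (SE 0.43, adjusted p = 1.60e-05, 10.2% of genes higher) and by 3.10 over ICA Bunsi (SE 0.48, adjusted p = 1.56e-05, 12.4% of genes higher).

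At R8 the order of MIDAS and G12873 was the other way round. MIDAS had 22.3 ± 3.18 CPM against 0.536 ± 0.107 CPM in G12873, a log2 difference of 5.32 (SE 0.51, adjusted p = 4.39e-09, edgeR) where 15.6% of genes were higher. MIDAS was also above SXB405 by 5.02 (SE 0.49, adjusted p = 6.00e-09, 14.6% of genes higher) and above ICA Bunsi by 4.03 (SE 0.46, adjusted p = 1.23e-07, 8.26% of genes higher). The other 3 accessions did not pass against each other at R8. SXB405 minus G12873 was 0.31 (95% interval -0.88 to 1.49), SXB405 minus ICA Bunsi was -0.99 (-2.04 to 0.06) and ICA Bunsi minus G12873 was 1.29 (0.19 to 2.39, adjusted p = 0.0841), in comparisons where 14.8%, 7.48% and 17.6% of genes differed. Both differences from ICA Bunsi turn sign without its R8 replicate 2 (0.45 for SXB405 minus ICA Bunsi and -0.15 for ICA Bunsi minus G12873). ICA Bunsi minus G12873 passed without ICA Bunsi R8 replicate 1 (1.65, adjusted p = 0.0352) or 3 (1.72, adjusted p = 0.0180), and SXB405 minus G12873 was -0.07 without SXB405 R8 replicate 1.

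At R9 MIDAS kept the highest level, although a low one. It had 2.58 ± 1.26 CPM against 0.157 CPM in SXB405 (log2 difference 3.93, SE 0.71, adjusted p = 0.000127, 11.4% of genes higher). Against ICA Bunsi, with 0.395 ± 0.491 CPM, the difference was 2.72 (SE 0.76, adjusted p = 0.0112, 8.12% of genes higher). Against G12873, with 0.591 CPM, it was 1.997 (SE 0.59, adjusted p = 0.0133, 10.4% of genes higher). The difference from ICA Bunsi was 1.87 without ICA Bunsi R9 replicate 2 (adjusted p = 0.214) and that from G12873 was 1.61 without G12873 R9 replicate 2 (adjusted p = 0.0835). No pair among SXB405, ICA Bunsi and G12873 passed at R9, with wide intervals of -3.64 to -0.22 for SXB405 minus G12873, -2.49 to 1.04 for ICA Bunsi minus G12873 and -3.32 to 0.92 for SXB405 minus ICA Bunsi, where 10.3%, 11% and 7.58% of genes differed. ICA Bunsi minus G12873 was -0.73, and 0.13 without ICA Bunsi R9 replicate 2. SXB405 and ICA Bunsi, which carry the same dehiscence label, did not pass against each other at R7 either (log2 difference 0.35, 95% interval -0.65 to 1.34, with 4.29% of genes different).

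G12873 at R7 and MIDAS at R8 stood apart in their other genes from the remaining accessions at the same labelled stage. On the first principal component of the 2000 most variable genes other than PvMYB26, which held 42.4% of their variance and ran from R7 to R9 libraries, 7 libraries lay between -61 and -33. They were the 3 of MIDAS at R8, replicate 2 of ICA Bunsi at R8 and the 3 of G12873 at R7. In each of these accessions they were the libraries with the most PvMYB26, at 18.7 to 24.9 CPM in MIDAS, 3.02 CPM in ICA Bunsi and 49.8 to 66.7 CPM in G12873. No SXB405 library lay in that stretch. The stretch was chosen after seeing these values, so no test was made. In G12873 R7 replicates 1 and 2, at -33.78 and -48.09, only 275179 and 687090 counts lay outside the 10 co-varying genes. The positions of these libraries rest on few counts. Replicate 3, with 9976502 such counts, lay at -53.09. The level also differed between accessions at a like position. At R7, MIDAS lay between -86.5 and -72.29 with 9.66 to 12.5 CPM, SXB405 between -88.75 and -80.55 with 0.948 to 2.09 CPM, and ICA Bunsi between -86.9 and -76.69 with 1.24 to 1.60 CPM. No whole group of another accession shared both label and position with G12873 at R7 or with MIDAS at R8. The ICA Bunsi R8 library in the stretch, with 3.02 CPM, lay at -33.2, against -60.36 to -46.85 in MIDAS at R8. Where G12873 at R7 or MIDAS at R8 is set against other accessions at the same label, accession and position cannot be told apart. The same holds for the tests of stage changes between accessions that use either group. G12873 at R7 and MIDAS at R8 shared the stretch under different labels. Their levels, 49.8 to 66.7 CPM and 18.7 to 24.9 CPM, did not overlap.

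**Figure D3:**
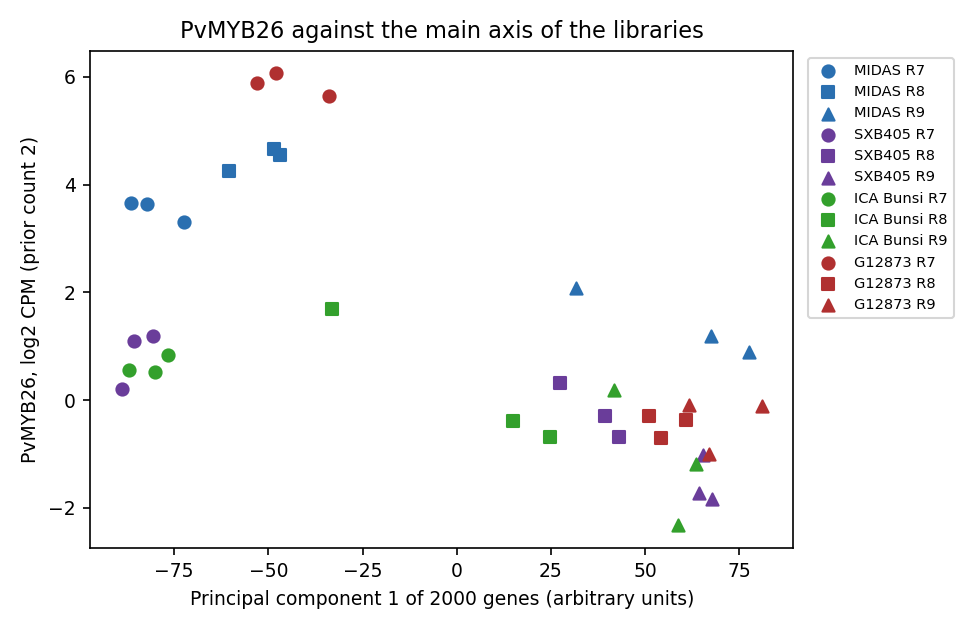
PvMYB26 as log2 CPM against the position of each library on the first principal component of 2000 genes, coloured by accession with a marker per stage. MIDAS R8, G12873 R7 and 1 ICA Bunsi R8 library share the stretch from -61 to -33, and the SXB405 libraries lie on either side of it.

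The scale of the deposited values changes the picture of this gene. The authors' TPM, which divide by all transcripts of a library, were 1.80, 9.28 and 62.1 in the 3 G12873 R7 libraries, where the set of 10 genes took 86.5%, 69.9% and 7.32% of the counts. In MIDAS at R8 they were 23.1, 5.01 and 18.5 TPM, with shares of 2.98%, 53.8% and 2.96%. The highest library of a group was 34.5 times the lowest in TPM for G12873 at R7, and 1.34 times in TMM-scaled CPM. For MIDAS at R8 the ratios were 4.61 and 1.33. On log2(TPM + 0.1) with limma, MIDAS minus G12873 at R7 was -0.26 (adjusted p = 0.825) in place of -2.37, while the fall in G12873 from R7 to R8 still passed (-4.42, adjusted p = 0.000432).

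**Figure D4:**
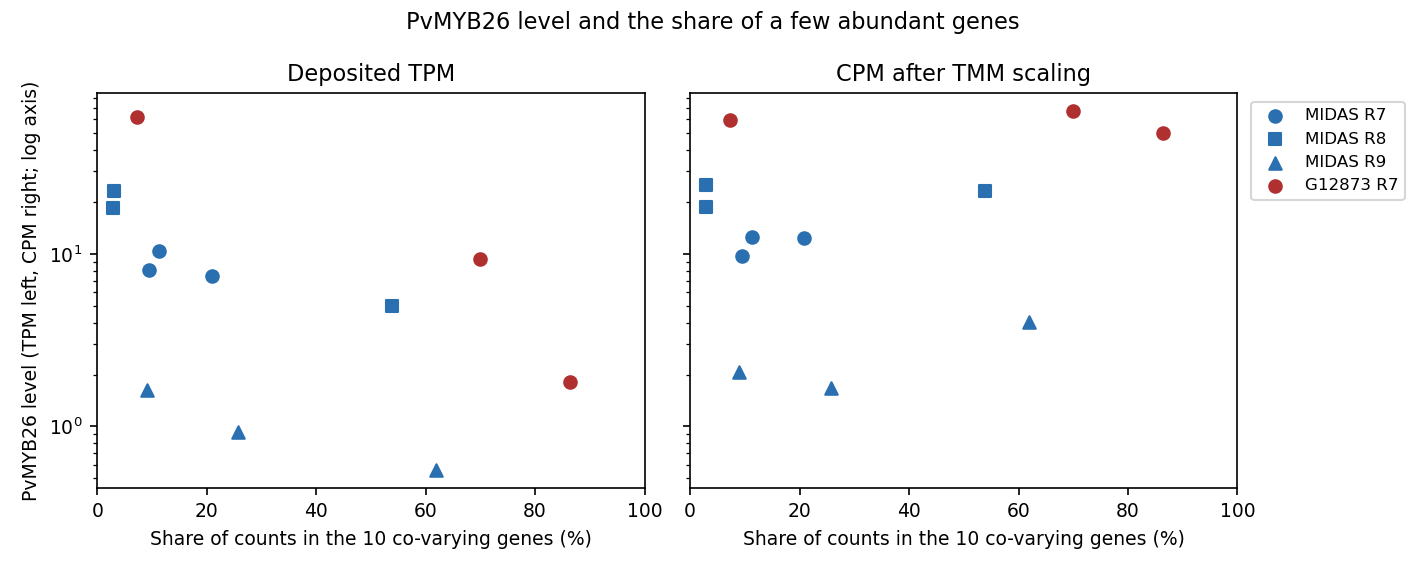
PvMYB26 in the 9 MIDAS libraries and the 3 G12873 R7 libraries, as deposited TPM on the left and as TMM-scaled CPM on the right, on log axes, against the share of counts taken by the 10 co-varying genes. The G12873 R7 libraries spread from 1.80 to 62.1 in TPM and from 49.8 to 66.7 in CPM.

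Some genes followed PvMYB26 over the 36 libraries. Likeness was Pearson's r of log2 CPM, given as a description, since libraries of a group share accession and stage and all points share the same scaling. Among 18846 other genes with a mean of at least 1 CPM, the median r was -0.12 and the middle 90% lay between -0.62 and 0.55. In these data 6 genes reached r = 0.8, and 25 were at -0.8 or under. The count at 0.8 depends on the measure, with 31 genes by Spearman's rho, 46 without the 8 libraries over 50% and 61 over the 12 group means. It ranged from 6 to 14 when each library was left out in turn, with 14 without G12873 R7 replicate 1. The files pair no names with these identifiers, so they are given by identifier.

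The highest r was 0.87, for Phvul.008G194714 (Spearman's rho 0.80, n = 36 libraries). Over R7, R8 and R9 its means were 3.76, 3.10 and 1.80 CPM in MIDAS. SXB405 had 0.646, 0.493 and 0.356 CPM of it, ICA Bunsi 0.629, 0.596 and 0.106 CPM, and G12873 8.29, 1.15 and 0.247 CPM. Like PvMYB26 its mean was highest in first pods of G12873 and higher in MIDAS than in SXB405 and ICA Bunsi at every stage. Phvul.007G153400 (r = 0.85) had 4.52, 2.96 and 3.81 CPM in the MIDAS libraries at R7 and 3.32, 12.1 and 2.08 CPM in those of G12873, which overlapped, with replicate 2 of G12873 far above the others. Phvul.002G210400 (r = 0.84) shared the R8 peak of MIDAS, with 7.61, 13.8 and 1.93 CPM over its 3 stages, and had 6.64, 16.2 and 2.67 CPM in the G12873 libraries at R7, where replicate 2 was again highest. In G12873 R7 replicates 1 and 2, 3 counts equal 9.96 and 3.03 CPM, so low values there rest on few counts. Phvul.007G104800 (r = 0.84) had its highest group mean in MIDAS at R8 (73.1 CPM) and 52.8 CPM in G12873 at R7. In ICA Bunsi at R8 it had 22.4, 73.0 and 15.9 CPM, highest in replicate 2, as PvMYB26 was. Phvul.002G278300 (r = 0.83) and Phvul.L004901 (r = 0.82) followed, with 46.1 and 4.34 CPM in SXB405 at R7.

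Of the genes that ran opposite, Phvul.004G165800 had r = -0.85 with small changes, between 57.7 and 75.6 CPM in MIDAS, 60.9 CPM in G12873 at R7 and 94.0 CPM or more in the other 8 groups. Phvul.010G017300 (r = -0.85) averaged 0.432, 0.285 and 11.8 CPM over the stages in MIDAS. In G12873 it averaged 16.4 CPM at R8, and at R7 it had 0, 0 and 5.47 CPM, where the counts of 0 allow up to 9.96 and 3.03 CPM. Phvul.011G017100 (r = -0.84) averaged 11.7 CPM in G12873 at R9, against 0, 0 and 2.496 CPM in the R7 libraries, under the same limits.

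**Figure D5:**
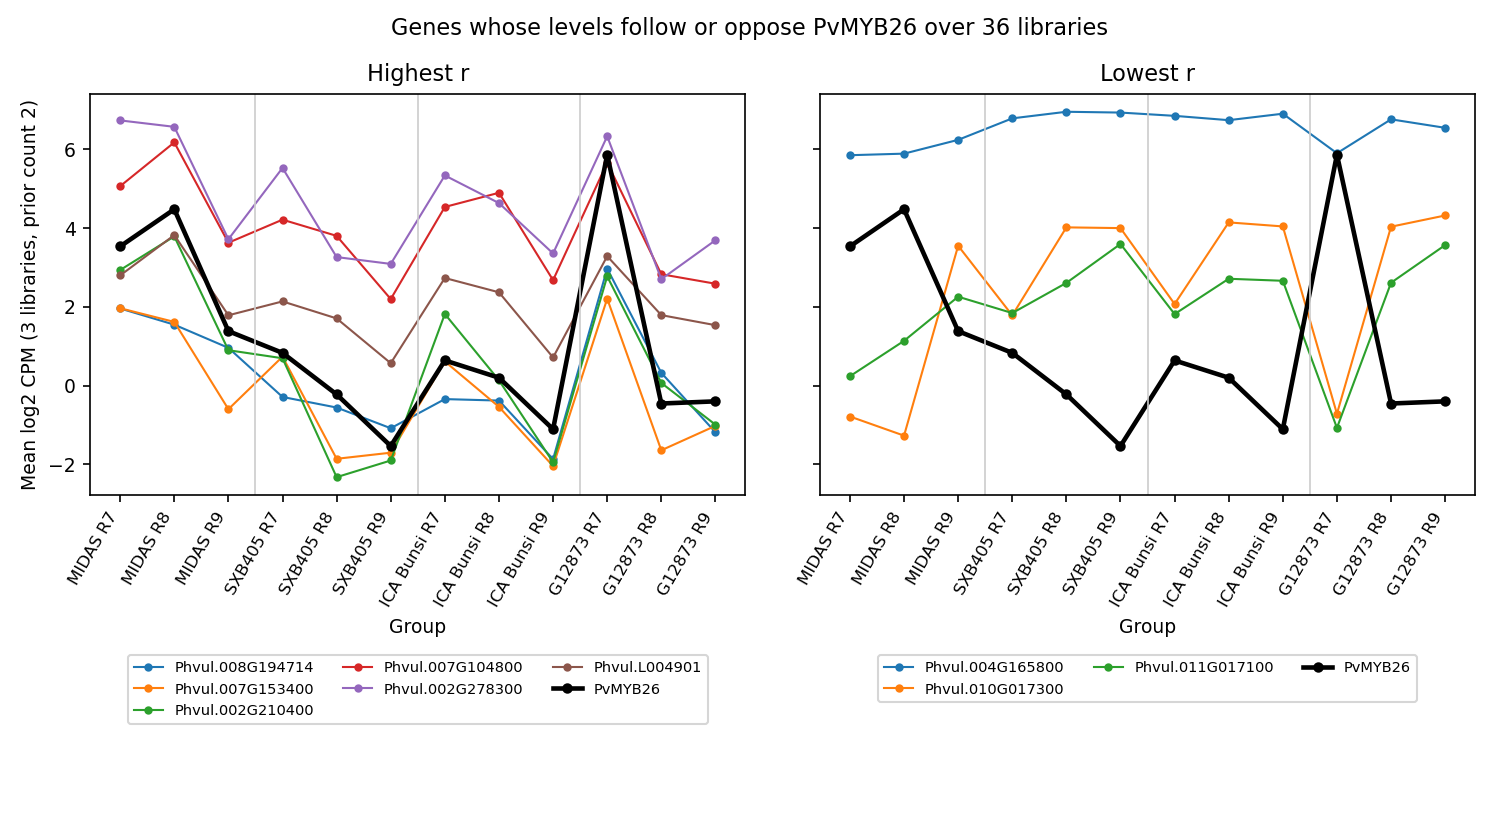
Mean log2 CPM of PvMYB26 (black) in the 12 groups beside the 6 genes with the highest r over the 36 libraries (left) and the 3 with the lowest (right). The black line peaks in G12873 at R7 and MIDAS at R8, where the group means of the left-hand genes are high and those of the right-hand genes low; G12873 R7 means of low genes rest on few counts.

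The likeness also differed with the level at which it was measured. Of the 18846 genes compared, 1979 reached r = 0.8 within the 9 libraries of MIDAS, 2078 in SXB405, 776 in ICA Bunsi and 1429 in G12873, and 116 genes did so in each of the 4. The 9 libraries span the 3 stages, so these counts take in genes that merely change with stage. In SXB405 and ICA Bunsi the r rest on low counts of PvMYB26, with totals of 4 and 5 at R9. Over deviations from the group means, which leave only the spread among replicates, the highest r were 0.80 for Phvul.003G165000, 0.80 for Phvul.003G197900, 0.78 for Phvul.005G122600 and 0.78 for Phvul.001G185800. All 4 were highest in replicate 2 among the R8 libraries of ICA Bunsi, the library that also stood apart for PvMYB26, with 6.85, 6.12, 40.3 and 57.9 CPM in that order, against 0.0839, 0.587, 2.18 and 10.6 CPM in replicate 3. Ranking by these deviations favours genes that share that library, so the sharing follows in part from how the 4 were picked. Phvul.001G185800 had 53.4, 51.3, 76.0 and 52.5 CPM at R7 in MIDAS, SXB405, ICA Bunsi and G12873, so that at first pods it was nearly level over accessions between which PvMYB26 ranged from 1.37 to 58.6 CPM.

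No other gene had the same calls as PvMYB26 in all 30 comparisons of stages and accessions. The closest, Phvul.006G103000, had the same call in 26 of 30, and was looked up for that reason after its values were seen. How many genes have a set of calls that no other gene repeats was not counted. Neither value therefore sets PvMYB26 apart from other genes.

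The other 2 dehiscence candidates shared some of this pattern and not the rest. PvPdh1 (Phvul.003G252100), named after a soybean dirigent protein gene of pod shattering, had r = 0.21 with PvMYB26 over the 36 libraries, and 0.58 without the G12873 R7 libraries. Within accessions its r was -0.65 in MIDAS, -0.46 in SXB405, -0.59 in ICA Bunsi and -0.86 in G12873. Like PvMYB26 it was called higher in MIDAS than in SXB405 and ICA Bunsi at all 3 stages, against the same shares of all genes given above for those comparisons. Unlike PvMYB26, PvPdh1 was also higher in MIDAS than in G12873 at R7, with 43.3 against 5.35 CPM. That log2 difference was 2.79 (adjusted p = 1.12e-05, edgeR), where 15.8% of genes were higher. PvIND (Phvul.002G271000), the bean homologue of the Arabidopsis thaliana valve margin factor INDEHISCENT, had r = 0.07 over the 36 libraries, 0.40 without the G12873 R7 libraries and -0.92 within MIDAS. PvIND was called higher in MIDAS than in SXB405 at all 3 stages, and than in ICA Bunsi at R8 and R9. Against ICA Bunsi at R7 it did not pass (adjusted p = 0.0842, edgeR), where 21.2% of genes differed. In G12873 R7 replicates 1 and 2, PvPdh1 had 1 and 6 counts and PvIND 0 and 0, where 3 counts equal 9.96 and 3.03 CPM. The r values of both genes that include these libraries rest partly on such few counts. At R9, where PvMYB26 was at its lowest in MIDAS, PvPdh1 reached 146 ± 38.2 CPM and PvIND 15.9 ± 2.07 CPM in that accession, the highest group means of both genes.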

How the data were processed

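Total RNA of whole pods was made into TruSeq libraries and read from a single end, per the labels' protocols. Samples were grouped by accession and stage from the sample labels. The authors deposited a table per sample with estimated counts per transcript, not normalized, and TPM values, which the authors scaled to the same total in every sample. The submitters' processing notes name kallisto, limma and edgeR; versions, index, genome build and use of strand were not given in the sources used here, so antisense reads cannot be separated.

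Estimated counts were summed per gene and rounded. The main fit was edgeR 4.0.16 (R 4.3.3): TMM scaling, filterByExpr (minimum count 10, minimum total 15), a robust quasi-likelihood fit over 36 samples and 12 groups. The filter kept 20966 of 27433 genes, PvMYB26 among them. Standard errors come from the F statistic. For PvMYB26, 39 tests were made, 30 contrasts and 9 differences of stage changes, each adjusted over all genes. log2 CPM used a prior count of 2. Python 3.11.15 and pandas 2.3.3 were used for tables and matplotlib 3.10.9 for plots. The fit was checked on simulated counts.

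The gene and the lists were chosen with earlier results of these data known. Genes named besides PvMYB26 were the 6 highest and 3 lowest by r, the 4 highest by r of deviations from group means, and 2 dehiscence candidates by identifier. None of the 27433 identifiers matched the 34165 genes of the RefSeq table, so the planned list of secondary wall genes by symbol was not run, pod tissue was not checked against marker genes, and no sequence is shown.

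Replicate numbers did not pair samples: same-numbered libraries of different groups had correlations of their deviations from the group means between -0.361 and 0.397 (median -0.011). No replicates agreed within sampling noise. The alternatives tried were RLE factors, limma-voom (limma 3.58.1), DESeq2 1.42.0, no low-count filter, the 50 most abundant genes left out, transcripts, TPM, only the 6 samples compared, a replicate block, joint adjustment, the 8 libraries over 50% left out, and each library left out in turn.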

Additional observations from a re-analysis of the deposited data

Results flagged for a closer look

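The stage changes of PvMYB26 differed between accessions in tests of the difference itself. All of these tests use G12873 at R7 or MIDAS at R8. Both groups stood apart on the first principal component from other accessions at the same label, so accession and position cannot be told apart. Over the 4 accessions the adjusted p was 3.20e-08 for R8 minus R7, 0.0253 for R9 minus R8 and 0.000332 for R9 minus R7 (edgeR). For the net change it was 0.000148 for MIDAS minus G12873 and 0.0328 for ICA Bunsi minus G12873. With 31 counts at R7 and 5 at R9, ICA Bunsi could not show a fall as large as that in G12873. The 10 co-varying genes took 86.5% and 69.9% of the counts in 2 of the 3 G12873 R7 libraries, which enter all of these tests but R9 minus R8. Without all 8 libraries over 50%, G12873 at R7 kept only replicate 3 and ICA Bunsi at R9 only replicate 2. Each of these tests draws on those groups, which then have no replicates, so that fit cannot decide whether the tests hold. The net ICA Bunsi minus G12873 difference there was 4.35. With each library left out in turn, the net ICA Bunsi minus G12873 call held in 7 of 12 fits and the R9 minus R8 test in 32 of 36.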

How the results depend on the processing

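Of 818 recomputed values, 735 were counted as unchanged. A log2 difference had to keep its direction and its side of the threshold, and an F-test its side only. Counts of genes by r had to stay close to the main count. Of the 18 calls among 30 contrasts, 14 held under every count-based alternative and every fit without a library, and 11 of these also with TPM. Depth limits the low groups: 17 libraries held under 10 counts of PvMYB26. The causes of the changes below were not tested.

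The RLE factors, DESeq2, limma-voom and TPM turned ICA Bunsi R8 minus R7 to -0.011, -0.020, -0.53 and -0.26. ICA Bunsi R9 minus R7 no longer passed with joint adjustment (-1.94), no filter (-1.95), transcripts (-1.88) or limma-voom (-1.62). SXB405 R8 minus R7 no longer passed with transcripts (-1.28) or only the 6 samples compared (-1.30). SXB405 R9 minus R8 passed with joint adjustment (-2.19), and the net SXB405 minus G12873 difference with limma-voom (3.46). With only the 6 samples compared, MIDAS minus ICA Bunsi (2.66) and MIDAS minus G12873 (2.03) at R9 were lost. Contrasts in which PvMYB26 failed the filter with 6 samples gave no value there. MIDAS R8 minus R7 passed under none of the alternatives, with log2 differences from 0.59 to 1.02, some near the 2-fold threshold.

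Without the 8 libraries over 50%, MIDAS minus ICA Bunsi at R9 (2.91), MIDAS minus G12873 at R9 (1.69), SXB405 R8 minus R7 (-1.27), ICA Bunsi R9 minus R7 (-2.31) and the net ICA Bunsi minus G12873 difference (4.35) no longer passed. In that fit G12873 at R7 kept only replicate 3 and ICA Bunsi at R9 only replicate 2. Calls kept or lost there that use these groups have no replicates behind them. With TPM, the calls lost were MIDAS minus SXB405 at R7 (2.30) and R9 (2.60), MIDAS minus ICA Bunsi at R9 (2.475), MIDAS minus G12873 at R7 (-0.26) and R9 (1.35), SXB405 R8 minus R7 (-1.52) and ICA Bunsi R9 minus R7 (-2.21), and G12873 R9 minus R8 was -0.22.

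The replicate numbers do not pair the samples: 9 of 36 libraries were closest to their own number. With a replicate block the one call that moved was ICA Bunsi R9 minus R8, which passed (-2.03, adjusted p = 0.0479, edgeR).

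Genes with r of at least 0.8 numbered 31 by Spearman's rho, 46 without the libraries over 50% and 61 over the 12 group means, against 6. Of the 50 highest, 29, 12 and 26 were shared, and 33 with TPM.

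Leaving out 1 library at a time gave the following ranges. At R9, MIDAS minus ICA Bunsi was 1.87 to 3.31, MIDAS minus G12873 1.61 to 2.21 and ICA Bunsi minus G12873 -1.33 to 0.13. At R8, ICA Bunsi minus G12873 was -0.15 to 1.72, SXB405 minus G12873 -0.075 to 0.58 and SXB405 minus ICA Bunsi -1.41 to 0.45. SXB405 R8 minus R7 was -1.69 to -1.03. In ICA Bunsi, R8 minus R7 was -1.41 to 0.46, R9 minus R8 -2.61 to -0.53 and R9 minus R7 -2.57 to -1.09. G12873 R9 minus R8 was -0.17 to 0.43. The net differences were 4.15 to 5.602 for ICA Bunsi minus G12873 and -1.24 to 0.24 for MIDAS minus ICA Bunsi. The adjusted p of the R9 minus R8 test over accessions was 0.00142 to 0.0830 (edgeR). Genes with r of at least 0.8 numbered 6 to 14, and 28 to 49 of the 50 highest were shared.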
